A study of Mus musculus with 12 samples.

Results

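Secretoglobins are small secreted proteins of mucosal surfaces, and 4 genes of the family that are read in the airway, Scgb1a1, Scgb3a1, Scgb3a2 and Scgb1c1, were followed in the lungs of mice after 3 days of low oxygen. They were chosen by name, by matching these 4 symbols or their synonyms to the gene symbols of the array's transcript clusters, and are 4 of 22180 genes with a symbol. Each had 1 transcript cluster, a group of probes along 1 transcribed region. Left lung lobes of 12 C57BL/6J mice were measured, with 1 whole-transcript array (Mouse Gene 2.0 ST) per mouse. The hypoxic group (n=6) breathed 10% oxygen at normal pressure in a chamber for 3 days, and the normoxic group (n=6) breathed 21% oxygen in the general animal unit. The labels name no engineered allele and no further agent in either group, and the age of the mice is not given in the sources used here. Chamber housing and low oxygen cannot be told apart in this design. Because whole lobe was measured, fewer cells of a type and less RNA per cell cannot be told apart in any value below.

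Secretoglobins form disulfide-linked dimers that enclose a hydrophobic pocket, and they are among the main products of non-ciliated secretory cells of the bronchi and bronchioles. Scgb1a1 encodes the club cell secretory protein, also called uteroglobin or CC10, and its promoter is widely used to drive transgenes in club cells. Scgb3a2 is a second club cell product, known for its dependence on the lung transcription factor NKX2-1. Scgb3a1, also called HIN-1, is a product of secretory cells of the larger airways and of mucous glands, and Scgb1c1 is a family member first known from the olfactory mucosa of the rat.

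The promoters of the 2 members past the test's threshold, Scgb3a1 and Scgb1c1, are shown because these genes moved in opposite directions. Both sequences are the 250 bases before the RefSeq start (GRCm38.p6, plus strand), Scgb3a1 at chr11:49663345-49663594 and Scgb1c1 at chr7:140845315-140845564. Capitals mark matches to the letters searched for 3 factors of airway genes.
Scgb3a1: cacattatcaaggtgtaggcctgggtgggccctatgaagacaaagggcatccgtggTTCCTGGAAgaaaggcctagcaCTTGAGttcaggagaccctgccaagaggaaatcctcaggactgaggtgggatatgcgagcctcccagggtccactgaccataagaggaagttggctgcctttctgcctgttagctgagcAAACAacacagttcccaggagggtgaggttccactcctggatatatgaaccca
Scgb1c1: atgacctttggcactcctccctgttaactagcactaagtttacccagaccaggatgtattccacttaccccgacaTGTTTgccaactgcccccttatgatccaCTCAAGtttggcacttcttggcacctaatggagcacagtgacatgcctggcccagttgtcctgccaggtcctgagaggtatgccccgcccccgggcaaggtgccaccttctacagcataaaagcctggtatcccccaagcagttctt
The NKX2-1 core letters CTCAAG occurred once in each promoter on either strand, 172 bases before the start in Scgb3a1 (as CTTGAG) and 147 bases before it in Scgb1c1, and in 13.3% of 32851 mouse promoters of this length. The forkhead letters TGTTT occurred once in each, as AAACA 53 bases before the start of Scgb3a1 and 175 bases before that of Scgb1c1, and in 46.4% of promoters. A STAT match, TTCNNNGAA, was present 194 bases before the start of Scgb3a1 and not in these letters of Scgb1c1 (7.02% of promoters). The hypoxia response letters ACGTG or GCGTG were found in neither (38.6% of promoters), nor was TATAAA on the gene's strand (7.59%). A match of letters is a description of the sequence and shows no binding. The table of promoters matched 2 of the 4 members, and Scgb1a1 and Scgb3a2 are named only.

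The deposited values were levels on a log2 scale from RMA, on which a difference of 1 is a change of 2-fold, and array medians lay between 5.89 and 5.95. Pairs of arrays correlated with r between 0.983 and 0.99 across transcript clusters. Hypoxia was compared with normoxia for 41155 transcript clusters with limma, two-sided, with Benjamini-Hochberg adjustment over all of them and a threshold of 0.05. Of all clusters, 4.47% passed, 2.77% higher and 1.70% lower in hypoxia, and the median log2 fold change was -0.02. By analysis of variance, used as an alternative, 4.73% of all clusters passed in either direction. The share at an unadjusted p under 0.05 is not given, so list counts at that level have no background beside them. The labelled tissue carried its markers, since the mean level of 10 genes of alveolar type 2 cells was between 11.31 and 11.59 on every array.

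Of the 4 secretoglobins, 1 rose and 1 fell, against 2.77% and 1.70% of all clusters. Scgb3a1 was higher in hypoxia by more than 2-fold, Scgb1c1 was slightly lower, and Scgb3a2 and Scgb1a1 did not pass the test. The same 2 genes, Scgb3a1 and Scgb1c1, had groups of mice that did not overlap, as did 4.03% of all clusters (2.50% higher and 1.53% lower in hypoxia).

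Scgb3a1, on chromosome 11, stood at 10.74, 10.28, 11.24, 10.72, 10.96 and 10.53 in the 6 normoxic mice. In the hypoxic mice it stood at 12.26, 11.68, 12.34, 11.67, 12.18 and 11.75. Every hypoxic mouse lay above every normoxic mouse, with a gap of 0.43 between the lowest hypoxic and the highest normoxic value. The hypoxic mice formed an upper set of 3 (replicates 1, 3 and 5), from 12.18 to 12.34, and a lower set of 3, from 11.67 to 11.75. In normoxia replicates 1, 3 and 5 were also the highest, from 10.74 to 11.24, with the other 3 from 10.28 to 10.72. The labels do not say what the replicate numbers mean, and the source of this shared order was not tested. The mean was 10.75 ± 0.33 in normoxia and 11.98 ± 0.31 in hypoxia (log2 level, SD, n=6 each). Scgb3a1 rose 2.35-fold (95% confidence interval 1.83 to 3.03; adjusted p=9.30e-04, limma). When each array was left out in turn, the log2 fold change lay between 1.14 and 1.33. The genes beside it in the annotation, the lymphatic endothelial receptor gene Flt4 and the deadenylase subunit gene Cnot6, had log2 fold changes of -0.02 and -0.09 and did not pass.

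Scgb1c1, on chromosome 7, stood at 9.21, 9.33, 9.32, 9.29, 9.33 and 9.22 in normoxia. In hypoxia it stood at 8.87, 8.82, 8.91, 9.05, 8.82 and 9.14. All hypoxic mice lay below all normoxic mice, but the gap was 0.07, and replicates 4 and 6 of hypoxia were the closest to the normoxic range. The mean was 9.28 ± 0.06 in normoxia and 8.94 ± 0.13 in hypoxia (log2 level, SD, n=6 each). Scgb1c1 fell to 78.5% of its normoxic level (log2 fold change -0.35, 95% confidence interval -0.49 to -0.21; adjusted p=0.00767, limma). The fall held with each array left out in turn, between -0.39 and -0.33 on the log2 scale. In the annotation this gene overlaps a long non-coding RNA, C330022C24Rik (log2 fold change -0.09, adjusted p=0.788, limma), and lies beside the sperm tail gene Odf3. Odf3, chosen for its place, fell by 0.26 from a mean of 4.77 to 4.51 (adjusted p=0.0310, limma), with groups that overlapped. These levels lie below the array medians of 5.89 to 5.95. Urah, on the other side, had a log2 fold change of -0.22 and did not pass (adjusted p=0.201, limma). Whether probes of Scgb1c1 read any of these neighbours was not tested.

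Scgb3a2, on chromosome 18, stood at 12.25, 12.23, 12.11, 12.21, 12.06 and 12.09 in normoxia and at 12.19, 12.24, 12.36, 12.19, 12.18 and 12.20 in hypoxia. The groups overlapped, and hypoxia replicate 3 was the highest of all 12. The mean was 12.16 ± 0.08 in normoxia and 12.23 ± 0.07 in hypoxia. The fold of 1.05 had a 95% confidence interval of 0.966 to 1.14 (adjusted p=0.609, limma).

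Scgb1a1, on chromosome 19, stood at 13.22, 13.19, 13.08, 13.08, 13.25 and 13.16 in normoxia and at 13.11, 13.18, 13.24, 13.12, 13.15 and 13.16 in hypoxia. The hypoxic values lay inside the normoxic range. Both group means were 13.16 (SD 0.07 in normoxia and 0.05 in hypoxia, n=6 each). The fold was 0.998 with a 95% confidence interval of 0.926 to 1.08 (adjusted p=0.984, limma). Its mean level was 13.16, the highest level of any transcript cluster was 13.54, and 11 clusters had a mean above that of Scgb1a1, so it lay near the top of the range of these arrays. Whether the probes still respond to more RNA at this level was not tested.

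**Figure D1:**
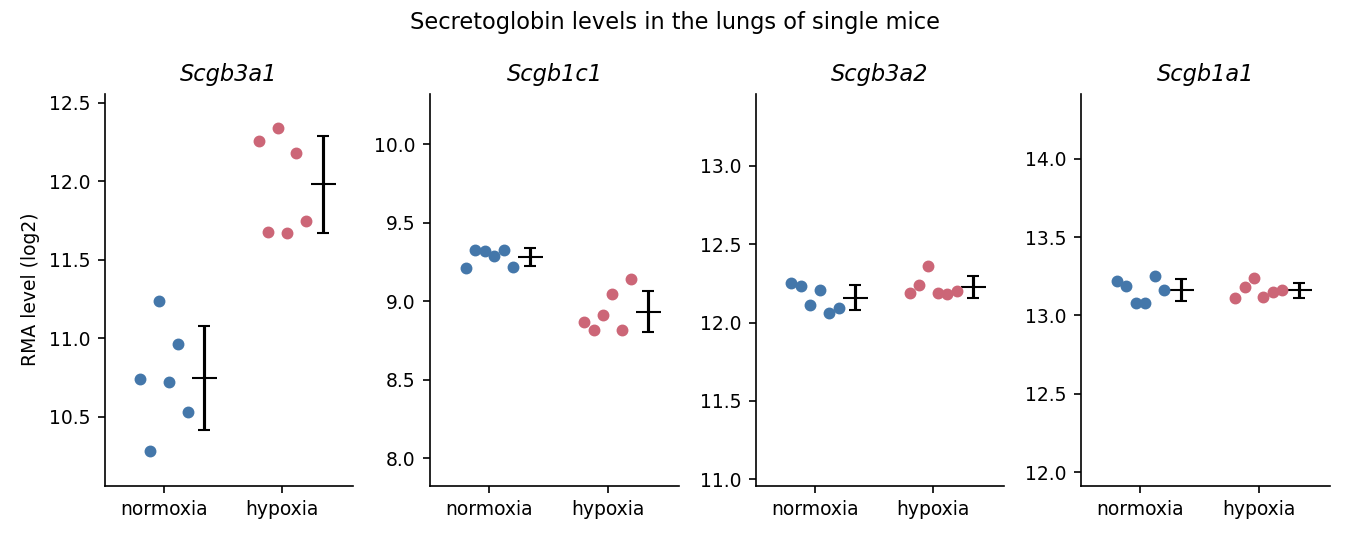
The log2 level of each secretoglobin in each of 6 normoxic and 6 hypoxic mice, as points, with the group mean and SD as bars; each vertical axis spans the same number of log2 units. Scgb3a1 separates widely (means 10.75 and 11.98), Scgb1c1 narrowly (9.28 and 8.94), and the points of Scgb3a2 and Scgb1a1 overlap.

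A member past the threshold and one that missed it are not thereby shown to differ, so the change was compared between members within each mouse. For each of the 6 pairs, the difference between both log2 levels was taken per mouse and hypoxia was set against normoxia by an exact permutation test over all splits of the 12 mice into groups of 6, two-sided, for which the smallest possible p is 0.00216. The change of Scgb3a1 exceeded that of its paralogue Scgb3a2 by 1.17 (SE 0.20, interval from inverting the test 0.715 to 1.56). It exceeded that of Scgb1a1 by 1.24 (SE 0.19) and that of Scgb1c1 by 1.58 (SE 0.21). Scgb1c1 also differed from both members that did not pass, by 0.42 from Scgb3a2 (SE 0.08) and by 0.35 from Scgb1a1 (SE 0.07). All 5 of these differences had an exact permutation p=0.00216, the smallest possible, an adjusted p=0.00260 over the 6 pairs, and groups with no overlap. Scgb3a2 and Scgb1a1 were not shown to differ, with a difference of 0.07 between their changes (interval -0.025 to 0.175; exact permutation p=0.177). Without normoxia replicate 4 that difference was 0.10 with an adjusted p=0.0152 (exact permutation test).

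**Figure D2:**
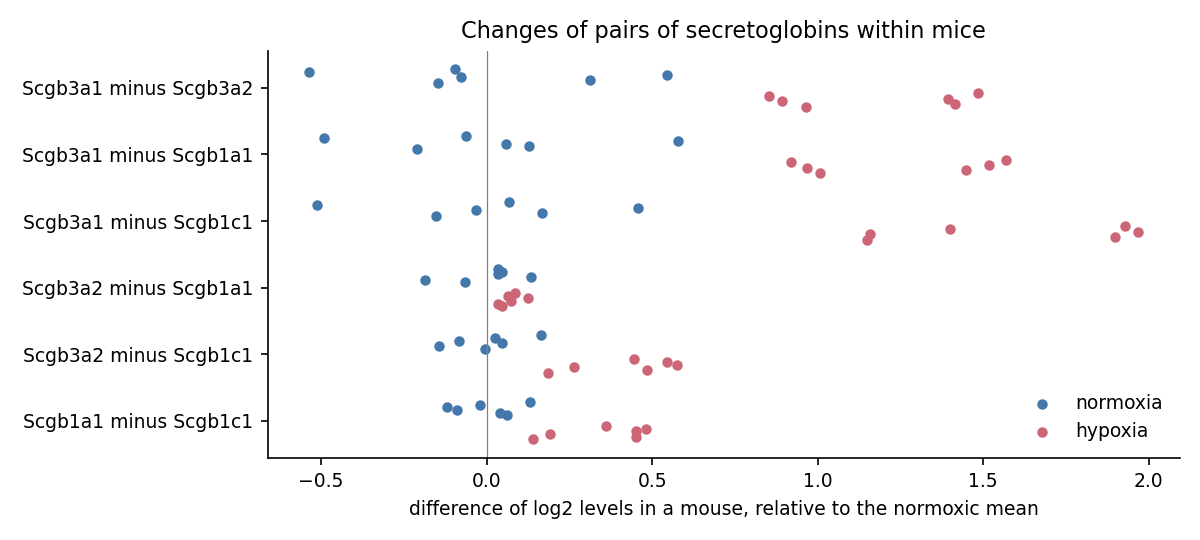
The difference in log2 level between members of each pair, per mouse, relative to its mean in the 6 normoxic mice. In 5 pairs the hypoxic mice lie apart from the normoxic mice, by 0.35 to 1.58 on average, and for Scgb3a2 against Scgb1a1 they overlap.

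No correlation between members from mouse to mouse passed the test. Within groups, 12 correlations between members were computed with exact permutation tests, and the lowest adjusted p was 0.20. That was for Scgb1a1 and Scgb3a2 in hypoxia (Pearson r=0.91, exact permutation p=0.0167; Spearman rho=0.81, exact permutation p=0.0722, adjusted p=0.867). Without the 2 mice farthest from the median of Scgb1a1, r was 0.75 over the 4 mice left, too few to serve as a check. In normoxia the same pair had r=-0.05.

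The genes whose deviations from their group means, over all 12 arrays, were most like those of each member were then listed among 11340 named genes. These r values are descriptions, over points that share an array and its normalization. The genes were picked for high r, so their match to a member in single mice follows from that choice. For Scgb3a1 they were Reg3g, an antibacterial lectin (r=0.94), Zxdc, a zinc finger gene (r=0.92), and Bpifa1, a secreted airway host defence protein (r=0.86). Reg3g stood between 11.24 and 11.62 in the 3 hypoxic mice with the highest Scgb3a1 and between 10.15 and 10.60 in the other 3. Those with the highest Scgb3a1 were replicates 1, 3 and 5, as in normoxia. In normoxia Reg3g stood between 7.70 and 8.71 in these replicates and between 6.61 and 7.18 in the other 3. Bpifa1 too was higher in replicates 1, 3 and 5 than in the rest of each group. Both Reg3g and Bpifa1 were highest, within normoxia, in replicate 3, the normoxic mouse with the highest Scgb3a1. Reg3g rose by 3.34 (adjusted p=8.77e-05, limma), while Bpifa1 had a log2 fold change of 1.22 that did not pass (adjusted p=0.214), its hypoxic mice ranging from 8.06 to 11.06. Over 20 genes of mucous and antimicrobial secretory cells, Reg3g and Bpifa1 among them, the median r with Scgb3a1 was 0.31 (range -0.44 to 0.94). It was 0.23 with Scgb3a2, 0.12 with Scgb1a1 and -0.39 with Scgb1c1.

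For Scgb3a2 the 3 genes were Cfap44 (r=0.94), Cfap53 (r=0.91) and Dnah10 (r=0.88), which all encode parts of motile cilia. Without the 2 arrays farthest from the median of Scgb3a2 the values were 0.88, 0.87 and 0.79. Among hypoxic mice Cfap44, picked for its r, was highest, at 8.23, in replicate 3, the mouse with the highest Scgb3a2. None of the 3 passed the test between groups, with log2 fold changes of -0.15, -0.02 and -0.17. Over the 10 measured genes of a ciliated cell list, the median r was 0.63 with Scgb3a2, 0.41 with Scgb1a1, -0.13 with Scgb3a1 and -0.05 with Scgb1c1. Over 17 measured club cell genes it was 0.50 with Scgb3a2, 0.18 with Scgb1a1, 0.10 with Scgb1c1 and -0.29 with Scgb3a1. How far the share of airway in each piece of lobe set these values was not tested.

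For Scgb1a1 the most similar genes were Nop14 (r=0.87), which acts in ribosome assembly, the lens water channel gene Mip (r=0.86) and Plekhm2 (r=0.84). For Scgb1c1 they were Zbtb44 (r=0.92), Plaur (r=0.92), which encodes the urokinase receptor, and Zfp410 (r=0.90). None of these 6 passed the test between groups.

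**Figure D3:**
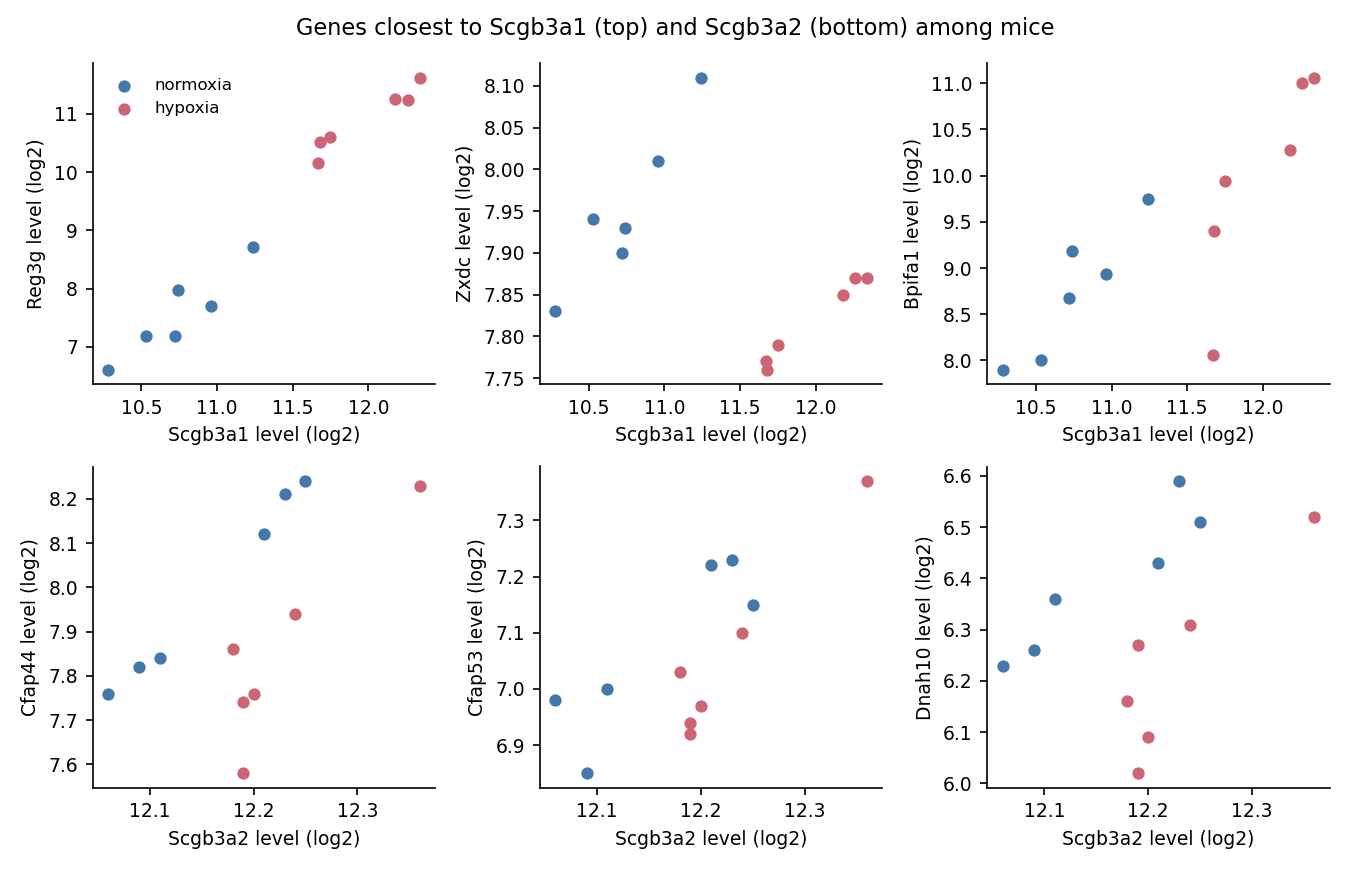
Log2 levels per mouse of Scgb3a1 against Reg3g, Zxdc and Bpifa1, and of Scgb3a2 against Cfap44, Cfap53 and Dnah10, with normoxic and hypoxic mice in different colours. The genes were picked for high r, so within each group the points run upward. Hypoxia replicate 3 is the point farthest right for Scgb3a2, at 12.36.

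Scgb3a1 belongs to the secretory programme of the larger airways, and 20 genes of mucous and antimicrobial secretory cells were read beside it. Like the lists below, this list was chosen with earlier results of these data known, so its counts are descriptions. Of these, 13 rose and 0 fell by limma, against 2.77% and 1.70% of all clusters. At an unadjusted p under 0.05, 16 were higher and 0 lower. By analysis of variance 10 rose and 0 fell, where 4.73% of all clusters passed in either direction. The median log2 fold change was 0.90 against -0.01 over all genes. The mean level of the list was between 6.18 and 6.59 in normoxic mice and between 7.02 and 7.71 in hypoxic mice. Among the mucins, Muc5b rose by 1.51 (7.33 to 8.39 in normoxia, 8.77 to 10.11 in hypoxia; adjusted p=0.00173, limma) and the tethered mucin gene Muc4 by 0.71. Muc5ac rose by 0.54 with overlapping groups, from a mean of 5.36 in normoxia, below the array medians of 5.89 to 5.95, to 5.905 in hypoxia. Of genes that serve mucin production, Agr2, a disulfide isomerase, rose by 2.19 (adjusted p=3.47e-04, limma), the secretory pathway factor gene Creb3l1 by 0.57 and the anion exchanger gene Slc26a4 by 1.03. Of host defence genes, the lactoferrin gene Ltf rose by 2.20, Bpifb1 by 1.83, Pigr, which carries antibodies across epithelium, by 0.80, Tff2, a trefoil peptide gene, by 0.99 and Gp2, a glycoprotein gene, by 1.03. Clca1 rose by 1.97, with hypoxic mice spread from 5.63 to 8.98 and groups that overlapped. The calls of Muc5ac and Clca1 were lost in 9 and 10 of 12 runs with 1 array left out, and that of Gp2 without normoxia replicate 2. The means of Gp2, 4.72 in normoxia and 5.75 in hypoxia, both lay below the array medians of 5.89 to 5.95. Spdef and Foxa3, which encode goblet cell transcription factors, had log2 fold changes of 0.09 and -0.08 and did not pass.

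Scgb1a1 and Scgb3a2 are club cell products. Of 17 measured further club cell genes, 5 fell and 0 rose by limma, against 1.70% and 2.77% of all clusters. At an unadjusted p under 0.05, 6 were lower and 4 higher. By analysis of variance 5 fell and 0 rose, where 4.73% of all clusters passed in either direction. The median log2 fold change was -0.08. The mean level of the list was between 9.62 and 9.79 in normoxia and between 9.58 and 9.69 in hypoxia. The 4 that were higher at an unadjusted p under 0.05 did not pass. They were Chad (log2 fold change 0.34), Hp (0.32), Cldn10 (0.22) and the glutathione transferase gene Gstm2 (0.10). The 5 genes that fell by limma encode detoxifying enzymes. The glutathione transferase gene Gsta3 fell by 0.51, from 9.16 to 9.49 in normoxic mice to 8.71 to 8.94 in hypoxic mice (adjusted p=4.31e-04, limma). Fmo2, a flavin monooxygenase gene, fell by 0.34, Cyp2f2, a cytochrome P450 gene, by 0.32, Ces1d, a carboxylesterase gene, by 0.29 and Aldh1a1, a retinal dehydrogenase gene, by 0.27. The count of 5 became 2 without hypoxia replicate 2 or without normoxia replicate 1, and 3 without hypoxia replicate 5 or without normoxia replicate 2. The calls of Cyp2f2 and Fmo2 were each lost in 7 of 12 such runs, and 1 of the 5 genes passed at a threshold of 0.01. In the same mice the fold of Scgb1a1 was 0.998, as above.

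Genes of other lung cell types were read beside these, where 2.77% of all clusters passed by limma as higher and 1.70% as lower. The 8 genes shared by epithelial cells had a median log2 fold change of 0.02 and 0 passed by limma (3 at an unadjusted p under 0.05; 0 by analysis of variance), with list means of 8.55 to 8.64 in normoxia and 8.52 to 8.64 in hypoxia. Of 10 measured ciliated cell genes, 2 rose and 1 fell. Those that rose, Mcidas by 0.68 and Ccno by 0.54, act in the making of ciliated cells, and the one that fell, Tppp3 by 0.36, encodes a tubulin-binding protein. The call of Ccno was lost in 9 of 12 runs with 1 array left out, and that of Tppp3 without hypoxia replicate 1, 2 or 4 or normoxia replicate 1. The means of Ccno, 5.215 in normoxia and 5.755 in hypoxia, both lay below the array medians of 5.89 to 5.95. The ciliated master regulator gene Foxj1 had a log2 fold change of 0.29 (adjusted p=0.0658, limma). Of 10 alveolar type 2 genes 1 fell, Etv5, an ETS transcription factor gene, by 0.23, while 6 were lower and 0 higher at an unadjusted p under 0.05, 9 had a log2 fold change below 0, and the median was -0.12. Of 7 alveolar type 1 genes 1 fell, Rtkn2 by 0.29, with 2 lower and 0 higher at an unadjusted p under 0.05 and a median of -0.10. None of 5 basal cell genes and none of 4 neuroendocrine genes passed by limma, 0 also at an unadjusted p under 0.05 and 0 by analysis of variance. The part of changed cell numbers in the values of the secretoglobins was not tested.

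**Figure D4:**
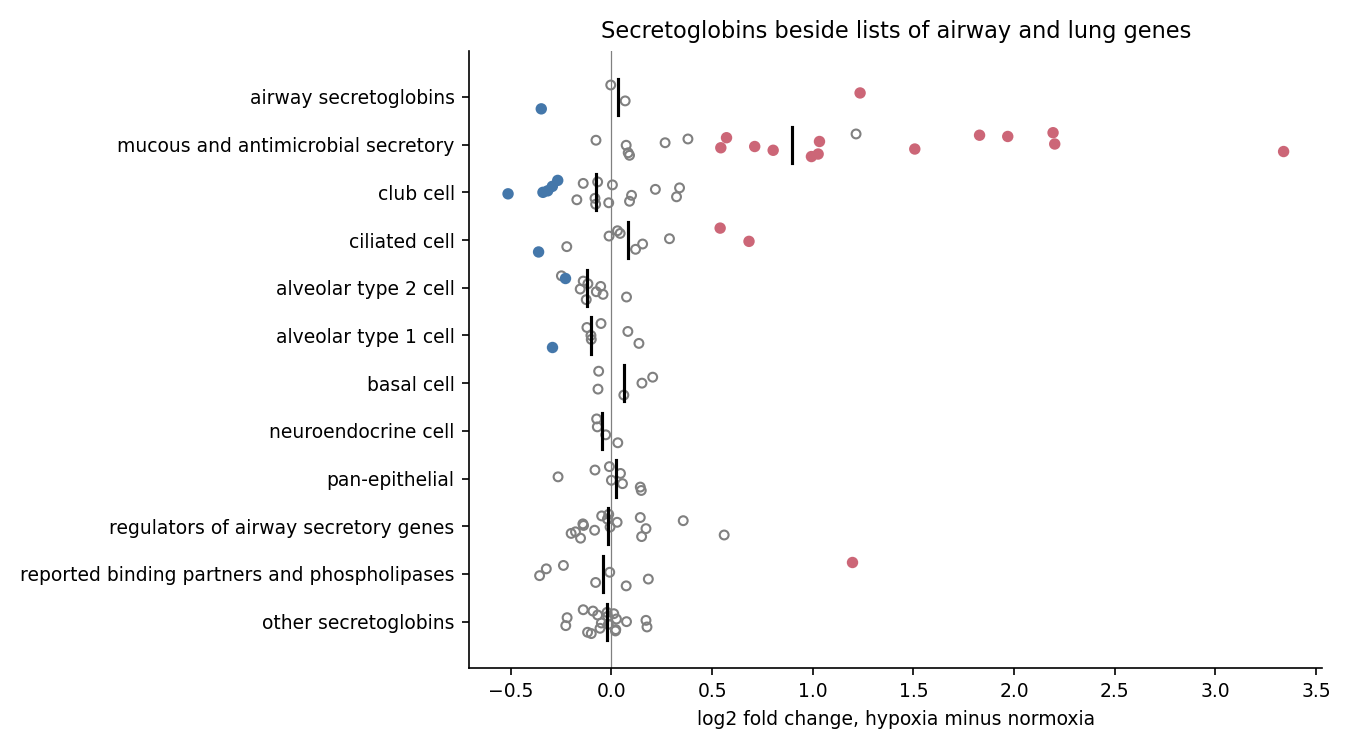
Log2 fold change (hypoxia minus normoxia) of each measured gene, grouped by list, with filled points past the threshold (red higher, blue lower), open points not past it, and a black line at the list's median. The list of mucous and antimicrobial secretory genes lies to the higher side (median 0.90), and the club cell genes that passed all lie on the lower side.

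Transcription factors known to act on secretoglobin or airway secretory genes were measured next, 16 of 17 listed. By limma 0 passed, while 7 had an unadjusted p under 0.05. By analysis of variance 2 passed, against 4.73% of all clusters, and the median log2 fold change was -0.02. The closest to the threshold were Elf3, an epithelial ETS factor gene (log2 fold change 0.36, adjusted p=0.0537, limma), Notch2 (-0.20, adjusted p=0.0812) and Nkx2-1 (-0.18, adjusted p=0.0816). Nkx2-1 stood between 8.30 and 8.45 in normoxia and between 8.07 and 8.27 in hypoxia, with no overlap. Of this list 2 genes were lower with no overlap, as were 1.53% of all clusters. Elf3 passed without hypoxia replicate 5 and Notch2 without normoxia replicate 6. Sox2, an airway lineage factor gene, had a log2 fold change of 0.56 with a wide spread (adjusted p=0.132, limma).

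A further list held 8 genes for reported binding partners of secretoglobins and for the phospholipases that uteroglobin is known to inhibit. By limma 1 of them rose, against 2.77% of all clusters. That was Fn1, which encodes fibronectin, a reported partner of uteroglobin. It stood between 10.12 and 10.39 in normoxia and between 11.28 and 11.58 in hypoxia and rose 2.29-fold (adjusted p=4.74e-07, limma). The pancreatic-type phospholipase gene Pla2g1b had a log2 fold change of -0.36 (adjusted p=0.0566, limma) and passed without hypoxia replicate 4. The cytosolic phospholipase gene Pla2g4a had one of 0.18, and Lmbr1l, whose human product is a reported receptor for uteroglobin, had one of -0.24, and neither passed. The scavenger receptor gene Marco, known as a receptor for Scgb3a2, had one of -0.32 (adjusted p=0.468, limma).

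The rest of the family gave no call. Of 19 further secretoglobin genes with a cluster of their own, which belong to the androgen-binding protein branches of the mouse, 0 passed by limma (1 at an unadjusted p under 0.05; 0 by analysis of variance), with log2 fold changes from -0.23 to 0.18. Members of these branches resemble each other closely in sequence, so that their values are uncertain as those of single genes. The mean level of the list was between 3.40 and 3.56 on every array, below the array medians of 5.89 to 5.95. At such low levels a missing call cannot tell an unchanged gene from one that was hardly read. The highest, Scgb1b3, had means of 9.22 in normoxia and 9.20 in hypoxia. A further 5 clusters carry several secretoglobin symbols and were named for none.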

How the data were processed

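RNA of left lung lobes from 12 separate mice was read on 12 arrays, 6 per group. The authors processed the scans with RMA in Affymetrix Expression Console (versions not given in the sources used here), which corrects background, normalizes and summarizes probes, so the deposited values are log2 levels. RMA forces arrays toward one distribution, and differences are relative to it. The number of mice limits the precision, and no background probe signal was used here.

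Of 41345 rows, 190 control rows were left out. Symbols came from the platform annotation (23521 clusters with 1 symbol, 1820 with several, 15814 unnamed here). A gene was read from its cluster with the highest mean. The test was limma 3.58.1 in R 4.3.3 (lmFit, eBayes, no trend, weights, filter or minimum fold). Its script was tested on simulated data. Pair tests and correlations used scipy 1.17.1, numpy 2.4.6 and pandas 2.3.3 in Python 3.11.15, and plots matplotlib 3.10.9. Promoters came from RefSeq (GRCm38.p6).

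Genes were named by rule: the members, genes of a list past the threshold, the 4 smallest p of each list where described, and the 3 genes most like each member (mean level at or above the median of all clusters). Odf3, Urah, C330022C24Rik, Flt4, Cnot6, Gm94, Spink1 and Ahnak were named for their position. Spdef, Foxa3, Marco, Chad, Hp, Cldn10 and Gstm2 were named after their values were seen. Members and lists were chosen with earlier results of these data known. The alternatives were analysis of variance, array weights, a trend with robust fitting, quantile normalization, median centring, filters, a threshold of 0.01, the replicate number as a block and each array left out. Labels give no batch.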

Additional observations from a re-analysis of the deposited data

Results flagged for a closer look

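Dixon's 95% critical value for 6 mice was used to find a highest or lowest mouse set apart from its group. Of 138 groups of named genes, 7 held one, where chance gives about 1 in 20. Scgb3a2 stood at 12.36 in hypoxia replicate 3, against 12.18 to 12.24 in the other hypoxic mice. In normoxia replicate 6, Notch2 stood at 8.38 (others 8.57 to 8.64) and Scgb2b23-ps at 4.20 (others 3.50 to 3.68). In normoxia replicate 5, Cldn3 stood at 8.20 (others 8.03 to 8.09) and Syp at 6.46 (others 6.66 to 6.77). Sox2 stood at 6.29 in normoxia replicate 4 (others 6.81 to 7.12), and Scgb1b30 at 4.38 in hypoxia replicate 6 (others 4.13 to 4.18).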

How the results depend on the processing

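The rise of Scgb3a1 and its call held in every alternative run, and Scgb3a2 passed in none. The log2 fold change of Scgb1a1, -0.00, changed sign with median centring (0.017) and lay between -0.02 and 0.014 with 1 array left out. Over all clusters, deviations of same-numbered arrays hardly correlated (r -0.01 to 0.07 over 6 pairs). For single members the r of same-numbered deviations was 0.80 for Scgb3a1, -0.16 for Scgb3a2, -0.39 for Scgb1a1 and -0.53 for Scgb1c1. Whether the replicate numbers mark something shared by both groups was not tested. With the replicate number as a block, 961 clusters passed instead of 1840 and the fall of Scgb1c1 (-0.35) had an adjusted p=0.0606 by limma, so that 1 member passed in place of 2; the cause was not tested. Of the club cell genes, 1 fell with the block in place of 5. Etv5 lost its call with it and Sox2 gained one. Nkx2-1 and Notch2 passed as lower with analysis of variance, a trend with robust fitting, a filter on mean level or clusters of 1 symbol only, and Elf3 as higher with both filters, median centring or quantile normalization. The filter on mean level called 2323 of 20578 clusters. Of the listed genes 24 passed, 13 at a threshold of 0.01 and 18 to 24 with 1 array left out. The difference between Scgb3a2 and Scgb1a1 lay between 0.035 and 0.10 with 1 array left out. Of 54 named listed genes, 22 changed a call or direction in some run. Signs turned for Chga (-0.112 to 0.00033), Syp (-0.009 to 0.059) and Scg5 (-0.063 to 0.005) with 1 array left out. No member has another cluster, so that alternative gave no value. With 6 mice per group, small changes can be missed.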

Other observations

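Of the genes on either side of Scgb3a2, the nearer, Gm94, had a log2 fold change of -0.04 and did not pass. The trypsin inhibitor gene Spink1 rose by 0.74 (adjusted p=0.0271, limma). Its means, 4.58 in normoxia and 5.32 in hypoxia, both lay below the array medians of 5.89 to 5.95. Ahnak, beside Scgb1a1, had a log2 fold change of 0.00. These genes were chosen for their position.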
